A study of Mus musculus with 2 samples.

Results

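The genes described here encode 10 homeodomain transcription factors of midbrain and hindbrain patterning: the engrailed genes En1 and En2, the orthodenticle genes Otx1 and Otx2, the gastrulation brain homeobox gene Gbx2, the LIM homeobox gene Lhx2, and the Iroquois genes Irx1, Irx2, Irx3 and Irx5. They were taken by symbol, and all 10 were found among 23284 gene symbols, each with 1 record of 23746. RNA sequencing was done on mouse medulloblastoma, a tumour of the cerebellum, in 2 libraries. The comparison asks how gene expression differs after loss of Brg1, the chromatin remodelling ATPase that the gene Smarca4 encodes. The Brg1 knockout library had the genotype CAG-CreER, Rosa26-SmoM2 and Brg1F/F. The wild-type library had the genotype CAG-CreER, Rosa26-SmoM2 and Brg1+/+. SmoM2 is an activated form of Smoothened, which drives Hedgehog signalling, and F marks a conditional allele that Cre recombinase deletes. Both genotypes were given 10 tamoxifen injections, 1 every other day, to activate the Cre. The CAG promoter is broadly active, so deletion is not restricted to tumour cells by the driver. The labels give no age or sex for the animals and do not say whether a library came from 1 animal or several. There was 1 library per genotype, so no value below has a replicate error and no difference was tested; "higher" and "lower" compare these 2 libraries.

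Early in development, Otx2 in the midbrain and Gbx2 in the anterior hindbrain repress each other, and the border between them becomes the isthmic organiser, a source of Fgf8 and Wnt1 signals. En1 and En2 are switched on around that border and are needed for the midbrain and for the cerebellum, where En2 helps to set the pattern of the folia. Iroquois genes act in neural tube regions on either side of the border, and Lhx2 acts mainly in the forebrain and eye. In the cerebellum, Otx2 is found in granule neuron precursors, the cells from which Hedgehog-type medulloblastoma arises, and also in the choroid plexus.

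The values are FPKM, a fragment abundance normalised for gene length and library size, so levels can be set side by side between genes. A record was called expressed if either library gave it at least 1 FPKM (13279 records). The log2 ratio is log2 of (knockout FPKM + 1) over (wild-type FPKM + 1), and a difference of at least 2-fold on that scale takes the place of a test. FPKM summed to 343028 in the knockout library and 388032 in the wild-type library, and the read depth is unknown. Smarca4 (chromosome 9, 21616169 to 21704230, mm10) had 3.76 FPKM in the knockout library and 14.05 FPKM in the wild-type library. Xist had 0.369 FPKM in the knockout library and 268.3 FPKM in the wild-type library, which is a transcript of female cells, so the donors may not have been of the same sex, and its part in the results was not tested. Each value was deposited with a lower and an upper bound, which in 51.2% of the expressed records of the knockout library and 49.0% of those of the wild-type library did not include the FPKM itself. The bounds are therefore given below as a second reading of each level and not as an error. Between the libraries they did not overlap in 77.7% of all expressed records, and in 8 of the 10 patterning genes. Bounds that do not overlap are thus the usual state in this series and do not set a gene apart.

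The 10 patterning genes summed to 44.3 FPKM in the knockout library and 71.9 FPKM in the wild-type library. Otx2 and En2 were the most abundant in both. Otx2 made up 46.0% of the sum in the knockout library and 56.8% in the wild-type library, and En2 made up 27.5% and 18.8% in the same order. Of the 10 genes, 7 were expressed. Lhx2 alone was lower in the knockout library by 2-fold or more (1 gene; 8.67% of all expressed records were), and Otx1 alone was higher by 2-fold or more (1 gene; 16.1% of all expressed records were). The other 5 stayed within 2-fold, with Otx2 just inside the limit. With 1 gene of 7 in each direction, the list as a whole is close to the background. Its median log2 ratio was -0.37, against 0.09 over all expressed records. At a limit of 1.5-fold, 2 genes (Lhx2 and Otx2) were lower and 1 (Otx1) higher, against 18% and 28.1% of all expressed records, and at 4-fold 0 were lower and 0 higher, against 1.5% and 4.17%. En1, Gbx2 and Irx3 were under 1 FPKM in both libraries.

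**Figure D1:**
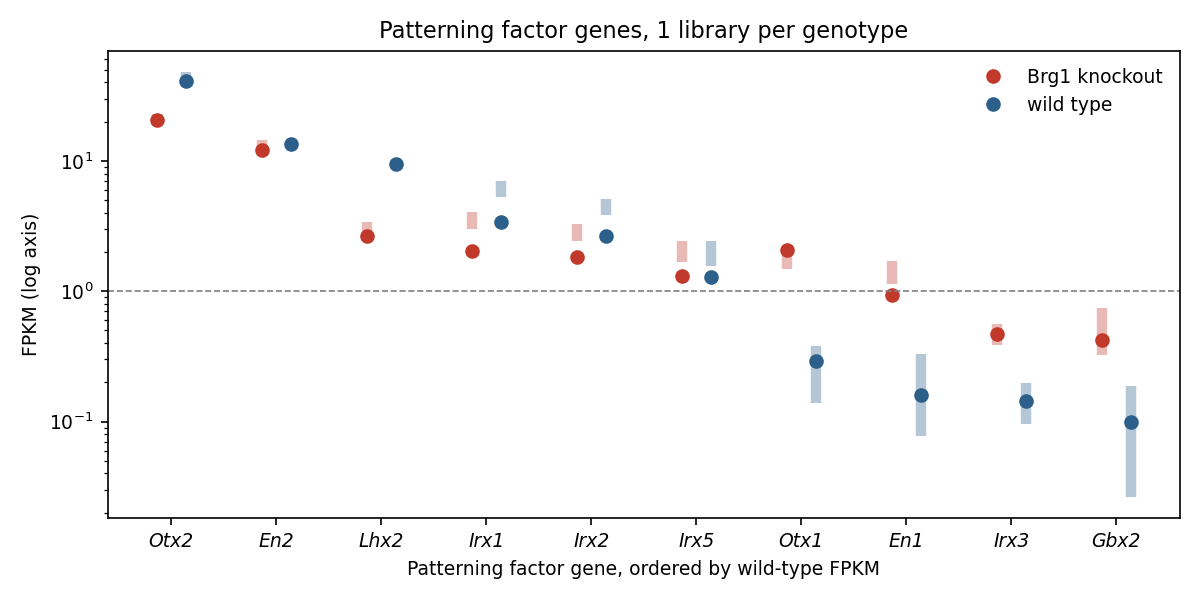
FPKM of the 10 patterning factor genes on a log axis, ordered by wild-type level; points are the deposited FPKM of the Brg1 knockout library (left of each pair) and the wild-type library (right), pale bars run between the deposited bounds, and the dashed line is 1 FPKM. Lhx2 and Otx2 are lower in the knockout library (2.67 and 20.4 FPKM) than in the wild-type library (9.55 and 40.9 FPKM), while the 4 genes under 0.3 FPKM in the wild-type library are all higher in the knockout library.

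The order of the levels in the knockout library was Otx2, En2, Lhx2, Otx1, Irx1, Irx2, Irx5, En1, Irx3 and Gbx2. In that library 3 of the 9 pairs of neighbours in the order had overlapping bounds, and these were Irx1 and Irx2, Irx5 and En1, and Irx3 and Gbx2. In the wild-type library the order was Otx2, En2, Lhx2, Irx1, Irx2, Irx5, Otx1, En1, Irx3 and Gbx2. There too 3 of 9 neighbouring pairs overlapped, all among the 4 lowest genes. Otx1 is the gene whose place differed most: it stood below the Iroquois genes Irx1, Irx2 and Irx5 in the wild-type library and above them in the knockout library by FPKM. By the bound midpoints Otx1 stood below all 3 in the knockout library as well (1.83 FPKM, against 3.54 FPKM for Irx1, 2.85 FPKM for Irx2 and 2.05 FPKM for Irx5), so its place there depends on which reading is used.

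Lhx2 encodes a LIM homeodomain factor that keeps progenitors of the cortex and retina in their regional identity. Lhx2 (ENSMUSG00000000247; chromosome 2, 38351308 to 38369728, plus strand, mm10) had 2.67 FPKM in the knockout library and 9.55 FPKM in the wild-type library. The knockout level was 28.0% of the wild-type level (log2 ratio -1.52), and 3.60% of expressed records had a lower ratio. The bounds did not overlap: they ran from 2.56 to 3.42 FPKM in the knockout library and from 8.79 to 10.3 FPKM in the wild-type library. Among 128 other homeobox genes, the one whose pair of log2(FPKM + 1) levels was nearest to that of Lhx2 was Tlx3, with 2.61 FPKM in the knockout library and 8.80 FPKM in the wild-type library. This likeness rests on 2 libraries. The nearest records on the chromosome, Dennd1a upstream (log2 ratio -0.11) and Nek6 downstream (log2 ratio -0.25), stayed within 2-fold.

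Otx2 encodes the factor that specifies forebrain and midbrain and marks the midbrain side of the organiser. Otx2 (ENSMUSG00000021848; chromosome 14, 48658184 to 48662872, minus strand, mm10) had 20.4 FPKM in the knockout library and 40.9 FPKM in the wild-type library. The knockout level was 49.97% of the wild-type level, and 9.29% of expressed records had a lower ratio. The log2 ratio was -0.97 with 1 FPKM added and -1.0007 with nothing added, an alternative chosen after seeing the data, so whether Otx2 passes the 2-fold limit depends on the scale. The bounds did not overlap, at 20.2 to 22.9 FPKM in the knockout library and 43.9 to 48.1 FPKM in the wild-type library. Upstream of Otx2, 6.4 kb away, lies the non-coding record Otx2os1, which had 0.871 FPKM in the knockout library and 1.85 FPKM in the wild-type library, so that its knockout level was 47.2% of its wild-type level (log2 ratio -0.61). Both records of this locus were thus lower in the knockout library by about the same proportion, but the bounds of Otx2os1 overlapped. The choroid plexus also makes Otx2. Of its 10 expressed markers, Otx2 among them, 0 passed 2-fold with 1 FPKM added, and their log2 ratios ran from -0.97 for Otx2 to 0.81. By that limit 8.67% of all expressed records were lower and 16.1% higher. As plain ratios, Slc4a5 was 3.30 and Otx2 0.4997 times the wild-type level, so Slc4a5 and Otx2 pass 2-fold without the added 1 FPKM. Kcnj13 (-0.34), Kl (-0.23) and Sostdc1 (-0.10) were lower in the knockout library like Otx2. The remaining expressed markers were higher: Slc4a5 (0.81), Enpp2 (0.79), Clic6 (0.72), Aqp1 (0.17), Ttr (0.10) and Folr1 (0.06). The list summed to 1259.0 FPKM in the knockout library and 1141.1 FPKM in the wild-type library, and Ttr had 1069.9 and 997.4 FPKM in the same order. The part of this tissue in the Otx2 levels was not tested.

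The promoters of the 2 patterning genes with the lowest ratios are shown to let their sequences be read beside the values. Each is 300 bases from RefSeq on GRCm38.p6, 250 before a transcript start and 50 after it, written 5′ to 3′ on the strand of the gene, with CpG dinucleotides in capitals. Lhx2 has 2 RefSeq starts and Otx2 has 4; the start nearest to the 5′ end of the deposited record was taken, which for Otx2 lies 138 bases from it and for Lhx2 matches it. The Lhx2 window is chr2:38351058-38351357 and the Otx2 window is chr14:48662685-48662984.
Lhx2: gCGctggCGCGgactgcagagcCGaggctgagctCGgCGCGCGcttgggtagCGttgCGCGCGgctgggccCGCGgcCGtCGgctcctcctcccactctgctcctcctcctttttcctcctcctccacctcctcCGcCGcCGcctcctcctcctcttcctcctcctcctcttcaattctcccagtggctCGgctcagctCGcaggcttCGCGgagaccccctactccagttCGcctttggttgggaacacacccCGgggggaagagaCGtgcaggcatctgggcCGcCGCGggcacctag
Otx2: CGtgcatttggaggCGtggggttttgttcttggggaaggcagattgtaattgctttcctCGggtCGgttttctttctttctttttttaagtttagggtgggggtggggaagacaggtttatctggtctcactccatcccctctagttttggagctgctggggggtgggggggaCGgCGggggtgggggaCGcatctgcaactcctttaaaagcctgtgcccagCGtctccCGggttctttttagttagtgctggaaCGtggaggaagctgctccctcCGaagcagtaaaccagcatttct
The Lhx2 window holds 29 CpG dinucleotides and 69.3% G and C, and the Otx2 window holds 11 CpG and 53.7% G and C. The median of 32851 promoters was 7 CpG and 52.7% G and C. Promoters of 6 of the 10 genes (En1, Otx2, Gbx2, Lhx2, Irx2 and Irx3) were matched by symbol. They were searched on both strands for TAATCC, the Otx motif, for TAATTA, a motif of engrailed, LIM and other homeodomains, and for TGGGTGGTC, the Gli motif of Hedgehog signalling. None of the 6 windows (0) held any of them. Among all promoters of that length 7.06% held TAATCC, 5.29% held TAATTA and 0.253% held TGGGTGGTC.

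Otx1, the paralog of Otx2, acts in the forebrain and midbrain. Otx1 (ENSMUSG00000005917; chromosome 11, 21994764 to 22001651, minus strand, mm10) had 2.07 FPKM in the knockout library and 0.290 FPKM in the wild-type library. That is 7.16 times the wild-type level (log2 ratio 1.25), and 88.7% of expressed records had a lower ratio. Otx1 passed the 1 FPKM limit only through the library in which it was higher. Its bounds were 1.47 to 2.18 FPKM in the knockout library and 0.140 to 0.380 FPKM in the wild-type library and did not overlap. The Otx paralogs therefore differed between the libraries in opposite directions. Otx1 made up 9.22% of the summed Otx1 and Otx2 FPKM in the knockout library and 0.704% in the wild-type library. From the midpoints of the bounds these shares were 7.81% and 0.563%. The flanking genes Ehbp1 (log2 ratio 0.11) and Wdpcp (log2 ratio 0.22) stayed within 2-fold. By its levels, Otx1 was nearest to Nkx6-2, with 2.03 FPKM in the knockout library and 0.213 FPKM in the wild-type library.

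The engrailed genes encode closely related repressors. En2 (ENSMUSG00000039095; chromosome 5, 28165696 to 28172166, plus strand, mm10) had 12.2 FPKM in the knockout library and 13.5 FPKM in the wild-type library (log2 ratio -0.14). The bounds overlapped, at 13.01 to 14.6 FPKM in the knockout library and 12.8 to 14.2 FPKM in the wild-type library. From their midpoints the log2 ratio was 0.03, and with FPKM rescaled to the same sum it was also 0.03, so no direction can be given for En2. It was the patterning gene of more than 5 FPKM with the most similar levels in the libraries. Its nearest homeobox gene by level was Meis3, with 11.9 FPKM in the knockout library and 13.4 FPKM in the wild-type library. En1 (ENSMUSG00000058665; chromosome 1, 120602487 to 120607991, plus strand, mm10) had 0.936 FPKM in the knockout library and 0.161 FPKM in the wild-type library, 5.83 times the wild-type level. Its log2 ratio was 0.74 with 1 FPKM added and 1.01 from the bound midpoints. The bounds did not overlap, at 1.14 to 1.71 FPKM in the knockout library and 0.0775 to 0.332 FPKM in the wild-type library. En1 made up 7.14% of the engrailed sum in the knockout library and 1.18% in the wild-type library.

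The gene next to En2, 33.3 kb downstream, is Cnpy1, which in zebrafish acts in Fgf signalling at the midbrain-hindbrain boundary. Cnpy1 had 24.8 FPKM in the knockout library and 11.5 FPKM in the wild-type library (log2 ratio 1.05, or 0.96 from the bound midpoints), while Insig1 on the other side of En2 had 28.1 and 25.5 FPKM in the same order. Cnpy1 was the 1 record past 2-fold among 11 distinct expressed neighbours of the 10 genes. The other 10 had log2 ratios between -0.61 and 0.53. Otx2 and Lhx2, the patterning genes with the lowest ratios, had no neighbour past the limit.

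Gbx2, the hindbrain factor that opposes Otx2, was low in both libraries. Gbx2 (ENSMUSG00000034486; chromosome 1, 89927962 to 89931176, minus strand, mm10) had 0.423 FPKM in the knockout library and 0.10004 FPKM in the wild-type library. Its bounds were 0.323 to 0.744 FPKM in the knockout library and 0.0266 to 0.186 FPKM in the wild-type library. Its paralog Gbx1 was listed at 0 in both.

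Iroquois factors belong to the TALE class of homeodomain proteins, and their genes lie in a pair of clusters, with Irx1 and Irx2 on chromosome 13 and Irx3 and Irx5 on chromosome 8. Irx1 (ENSMUSG00000060969; chromosome 13, 71958232 to 71963723, minus strand, mm10) had 2.02 FPKM in the knockout library and 3.40 FPKM in the wild-type library (log2 ratio -0.54). Irx2 (ENSMUSG00000001504; chromosome 13, 72628978 to 72634194, plus strand, mm10) had 1.83 FPKM in the knockout library and 2.65 FPKM in the wild-type library (log2 ratio -0.37). Both genes of the chromosome 13 cluster were lower in the knockout library by less than 2-fold. Their bounds did not overlap between the libraries, as in 77.7% of all expressed records. Irx4, the third gene of that cluster, had 0.0208 FPKM in the knockout library and a listed value of 0 in the wild-type library. Irx5 (ENSMUSG00000031737; chromosome 8, 92357796 to 92361456, plus strand, mm10) had 1.31 FPKM in the knockout library and 1.28 FPKM in the wild-type library (log2 ratio 0.02). Irx3 (ENSMUSG00000031734; chromosome 8, 91798511 to 91801654, minus strand, mm10) had 0.473 FPKM in the knockout library and 0.144 FPKM in the wild-type library, 3.28 times the wild-type level. The log2 ratio of Irx3 was 0.36, so both genes of the chromosome 8 cluster were within 2-fold on that scale. Irx5 had overlapping bounds (1.69 to 2.41 FPKM in the knockout library and 1.56 to 2.41 FPKM in the wild-type library). Irx3 did not (0.385 to 0.565 FPKM and 0.0962 to 0.197 FPKM), but it was under 1 FPKM in both libraries. Irx6, next to Irx5, had 0.0213 FPKM in the knockout library and 0.0482 FPKM in the wild-type library. Beside Irx5, 1.7 kb upstream, the non-coding record 4933436C20Rik had 1.90 FPKM in the knockout library and 3.19 FPKM in the wild-type library (log2 ratio -0.53). By level, Irx1 and Irx2 were both nearest to Cux2 (2.35 and 2.63 FPKM) and Irx5 to Homez (1.65 and 1.19 FPKM).

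For Irx1, Irx2 and Irx5 the deposited FPKM lay below its own bounds in both libraries. Irx3 lay within its bounds in both. Outside the Iroquois genes, En1 and En2 in the knockout library and Otx2 in the wild-type library also lay below theirs. Irx1 had bounds of 3.001 to 4.08 FPKM in the knockout library and 5.26 to 6.95 FPKM in the wild-type library, and Irx2 had bounds of 2.42 to 3.29 FPKM and 3.86 to 5.09 FPKM in the same order. The Iroquois genes also share stretches of coding sequence, and a read that falls wholly within a shared stretch cannot be assigned to 1 gene. Over the 6 pairs of Iroquois genes, the longest run of identical bases between GENCODE M21 transcripts was 26 to 65 bases. Over the other 39 pairs of patterning genes it was at most 21 bases, with 17 for En1 and En2 and 18 for Otx1 and Otx2. The longest shared runs are printed 5′ to 3′ with the part common to both pairs in capitals. They lie in the coding sequence, in the part that encodes the homeodomain.
Irx2 and Irx5: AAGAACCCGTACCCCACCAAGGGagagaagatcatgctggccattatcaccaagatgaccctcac
Irx3 and Irx5: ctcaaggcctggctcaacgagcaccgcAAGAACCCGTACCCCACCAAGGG
The first run is 65 bases, the other is 50 bases, and 23 bases are common to both. The sources used here give neither the read length nor the handling of reads that match several genes, and their part in the Iroquois levels was not tested.

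**Figure D2:**
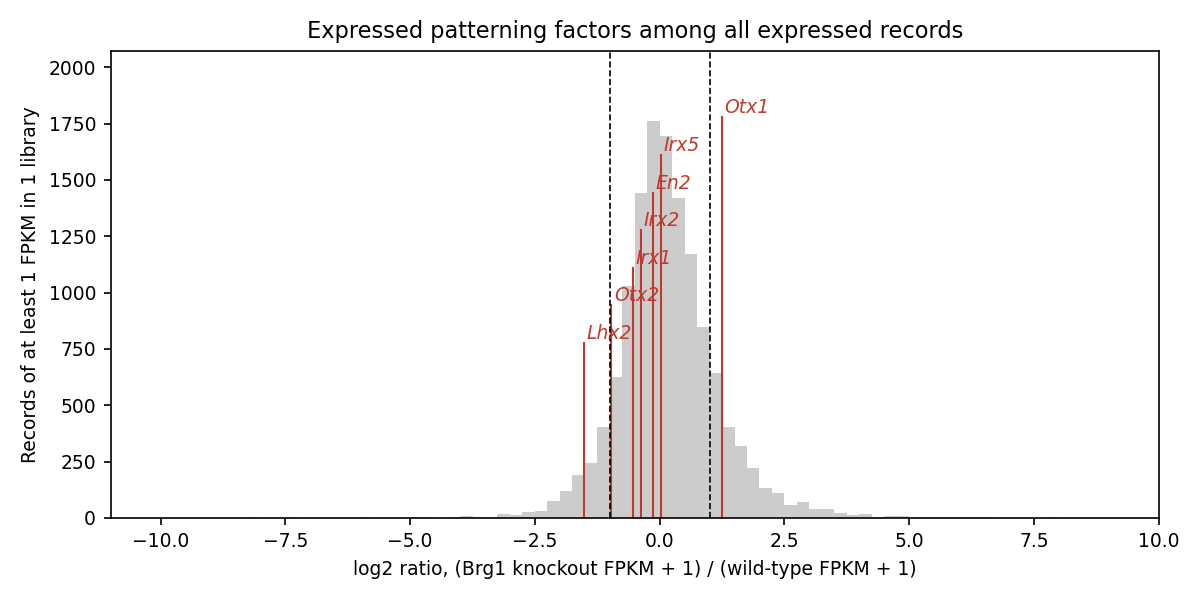
Log2 ratios of the Brg1 knockout library over the wild-type library for the 7 expressed patterning factors (red lines) over the histogram of all 13279 expressed records (grey; the y axis counts records, and the heights of the red lines carry no value), with dashed lines at 2-fold. Lhx2 (-1.52) lies beyond the lower line, Otx2 (-0.97) at it and Otx1 (1.25) beyond the upper line, and the other 4 lie in the body of the histogram.

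The patterning genes were also grouped by their wild-type level. All 4 genes under 0.3 FPKM in the wild-type library (Otx1, En1, Irx3 and Gbx2) were higher in the knockout library, by 3.28 to 7.16 times as plain FPKM ratios. Of the 6 genes of at least 1 FPKM in the wild-type library, 5 were lower in the knockout library, though En2 among them changed sign with the scale. This grouping was made after the values were seen. It also uses the wild-type level, which is the divisor of the ratio, so it favours higher ratios among the low genes. No link between level and direction can be drawn from it, and the shares over the series below are grouped in the same way. For the low genes a similar lean was present across the series: of 1300 records with 0.1 to 0.3 FPKM in the wild-type library, 72.2% were higher in the knockout library, 32.4% at least 3-fold, and the median ratio was 1.94. Of 10782 records with 1 to 50 FPKM in the wild-type library, 47.6% were lower in the knockout library and 52.4% higher, with a median ratio of 1.03.

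Signals of the isthmic organiser were under 1 FPKM in both libraries. Fgf8 had 0.0183 FPKM in the knockout library and 0.618 FPKM in the wild-type library. That is 0.0297 times the wild-type level as a plain ratio, and a log2 ratio of -0.67 with 1 FPKM added. Fgf17 had 0.0798 and 0.0876 FPKM in the same order, and Wnt1 was listed at 0 in both. Of 14 organiser signals, receptors and feedback genes, 9 were expressed, of which 2 exceeded 2-fold upward and 0 downward in the knockout library (median log2 ratio -0.27). The share of higher genes, 22.2%, stands beside 16.1% of all expressed records, and 8.67% of those records were lower. The higher genes were Cnpy1 and Fgfr3, an Fgf receptor gene that astrocytes also express, with 40.1 FPKM in the knockout library and 7.03 FPKM in the wild-type library. The listed feedback inhibitors of Fgf signalling were all lower in the knockout library, within 2-fold on the log2 scale. Among them were Spry1 (4.37 FPKM in the knockout library and 7.94 FPKM in the wild-type library) and Dusp6 (14.1 and 22.4 FPKM). The others were Spry2 (log2 ratio -0.27), Spry4 (-0.62) and Il17rd (-0.60). As plain ratios, Spry4 was 0.503 and Il17rd 0.496 times the wild-type level, so Il17rd passes 2-fold without the added 1 FPKM.

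Among 27 other transcription factors of the boundary and the hindbrain, 14 were expressed, and in the knockout library 3 passed 2-fold upward and 3 downward (median log2 ratio -0.30). These are 21.4% in each direction, against 16.1% of all expressed records upward and 8.67% downward. Of the 3 downward, Sp5 (-1.07) and Pou3f4 (-1.10) were within 2-fold from the bound midpoints (-0.88 and -0.91), which leaves Pbx3 alone. The Pax genes that work with the engrailed genes at the boundary were low: Pax2 had 0.592 FPKM in the knockout library and 0.00956 FPKM in the wild-type library, Pax5 had 0.0336 FPKM in the knockout library and a listed value of 0 in the wild-type library, and Pax8 was listed at 0 in both. Hes3, a bHLH repressor of the isthmus that Purkinje cells also express, had 8.35 FPKM in the knockout library and 0.634 FPKM in the wild-type library. Tfap2b, which marks GABAergic cells of the cerebellum, had 3.58 and 0.0762 FPKM in the same order, and Tfap2a had 1.68 and 0.0527 FPKM. Pbx3, a TALE partner of engrailed and other homeodomain proteins, was lower, with 7.83 FPKM in the knockout library and 26.5 FPKM in the wild-type library (log2 ratio -1.64).

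Of 18 expressed genes for cofactors of these factors, 4 passed 2-fold downward in the knockout library and 0 upward (median log2 ratio -0.38). That is 22.2% lower and 0% higher, against 8.67% and 16.1% of all expressed records. The lower genes were Pbx3, the Groucho-type corepressor gene Tle1 and the LIM-only genes Lmo1 and Lmo3. Tle1 had 4.597 FPKM in the knockout library and 16.9 FPKM in the wild-type library (log2 ratio -1.67). The log2 ratios of Lmo1 and Lmo3 were -1.04 and -1.05, but -0.79 and -0.94 from the bound midpoints. Ldb1, the obligate partner of LIM homeodomain proteins such as Lhx2, had 44.1 FPKM in the knockout library and 68.3 FPKM in the wild-type library (log2 ratio -0.62). A list of 14 further homeobox genes held Iroquois and LIM genes and also Mkx, Otp and Crx. Of the 14, 2 were expressed and 0 passed 2-fold with 1 FPKM added (median log2 ratio -0.39). Lhx1 had 14.7 FPKM in the knockout library and 14.1 FPKM in the wild-type library, and Lhx3 had 0.745 and 2.12 FPKM. As a plain ratio Lhx3 was 0.352 times the wild-type level, so it passes 2-fold without the added 1 FPKM.

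Of 128 homeobox genes other than the patterning genes, 53 were expressed. Of these, 14 (26.4%) were at least 2-fold lower and 2 (3.77%) higher in the knockout library, against 8.67% and 16.1% of all expressed records, and the median log2 ratio was -0.38. The median of the 7 expressed patterning genes, -0.37, was close to that value. The lowest ratios were those of Tgif2 (2.40 FPKM in the knockout library and 26.8 FPKM in the wild-type library), Tgif1 (6.58 and 33.4 FPKM), Pou4f1 (1.19 and 7.36 FPKM) and Tshz2 (4.37 and 17.1 FPKM). In all, 6 of the 53 had a lower ratio than Lhx2.

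**Figure D3:**
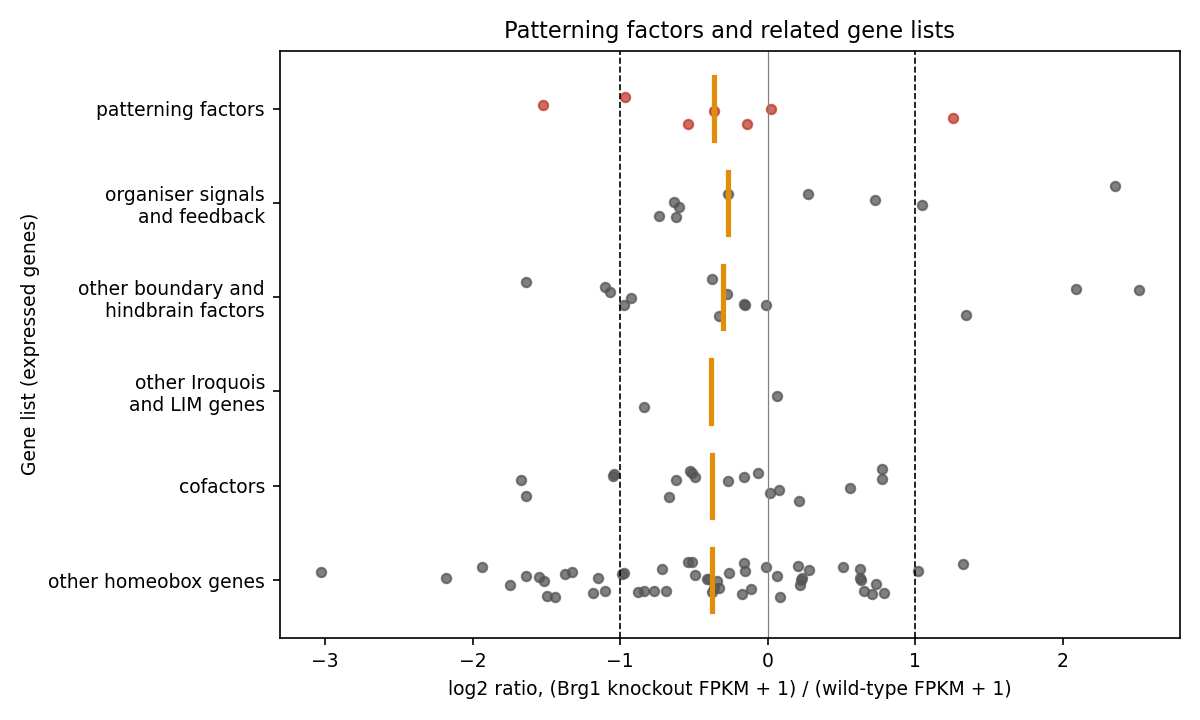
Log2 ratios of expressed genes in the patterning factor list (red) and in related lists (grey), Brg1 knockout over wild type; each point is a gene, vertical scatter carries no value, orange bars are list medians and dashed lines mark 2-fold. The medians of the patterning factors (-0.37), the cofactors (-0.38) and the other homeobox genes (-0.38) lie close together.

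The tissue held several cell types, and in bulk RNA fewer cells of a type and less RNA per cell cannot be told apart. All marker counts here are of genes at least 2-fold lower or higher in the knockout library. Of all expressed records, 8.67% were lower and 16.1% higher by that limit. Markers of granule neuron precursors were at least 2-fold lower in 7 of 10 expressed genes. Their summed levels were 344.7 FPKM in the knockout library and 949.1 FPKM in the wild-type library. The log2 ratios of this list ran from -3.65 to 0.42 with a median of -2.24. Markers of mature cells were mostly at least 2-fold higher. For mature granule neurons this was 10 of 10 expressed genes (summed levels 639.5 FPKM in the knockout library and 105.6 FPKM in the wild-type library), for Purkinje cells 8 of 10 (794.1 and 30.2 FPKM), for GABAergic interneurons 5 of 5 (402.5 and 13.6 FPKM) and for astrocytes and Bergmann glia 9 of 10 (2577.2 and 508.1 FPKM). The oligodendrocyte lineage had 5 of 10 higher and 3 lower (618.3 and 230.3 FPKM), microglia and macrophages 6 of 8 higher (134.3 and 63.8 FPKM), endothelial cells 2 of 6 (102.1 and 32.0 FPKM), and meninges, pericytes and fibroblasts 4 of 9 (142.5 and 41.96 FPKM). In these lists no marker was listed at 0 in either library. Gad1, with 77.1 FPKM in the knockout library and 1.80 FPKM in the wild-type library, counts in both the Purkinje cell and the GABAergic interneuron list. Midbrain dopaminergic neurons, which use En1 and Otx2, had 5 of 9 markers expressed, 2 higher and 1 lower. The higher ones were Aldh1a1 (76.7 and 6.06 FPKM) and Ddc. The lower one was Foxa2, with 0.418 FPKM in the knockout library and 5.42 FPKM in the wild-type library. Th (2.74 and 4.20 FPKM) and Nr4a2 (3.65 and 3.94 FPKM) were expressed in both libraries. The other markers were under 1 FPKM, with Slc6a3 at 0.0222 FPKM in the knockout library and 0.0193 FPKM in the wild-type library, Slc18a2 at 0 in the knockout library and 0.654 FPKM in the wild-type library, Foxa1 at 0 in the knockout library and Pitx3 at 0 in the wild-type library. The part of cell composition in the levels of the patterning genes was not tested.

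**Figure D4:**
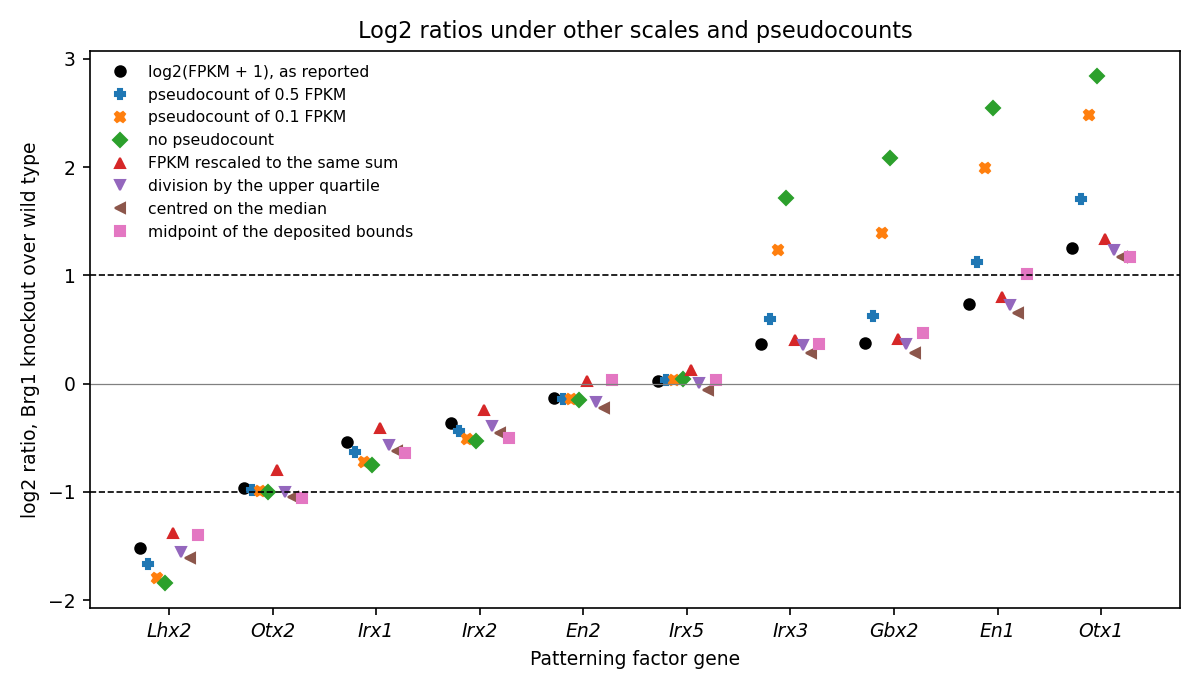
Log2 ratios of the 10 patterning factor genes, Brg1 knockout over wild type, under the reported scale (black) and 7 others; dashed lines mark 2-fold. Lhx2 stays below the lower line and Otx1 above the upper line on every scale shown, Otx2 lies on either side of the line (-1.06 to -0.80), and the genes under 1 FPKM move with the pseudocount, En1 from 0.74 with 1 FPKM added to 2.54 with none.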

How the data were processed

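RNA was measured by sequencing in 1 library of Brg1 knockout and 1 library of wild-type SmoM2 medulloblastoma. Per the labels, total RNA was extracted with TRIzol from dissected tumour tissue and sequenced. The authors deposited FPKM per gene with lower and upper bounds and a status, per the file headers. Cuffdiff 2.1.1 and mm10 appear in the submitters' processing notes, and the sources used here give no aligner, annotation or bound method. Among 650 records above 0 and under 0.05 FPKM in both libraries, the ratios showed no step of whole reads (at most 50 in a log2 bin of 0.1), so the depth is unknown.

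Records were joined by symbol and locus. Of 21209 records with a GENCODE M21 symbol, 51.2% had a matching start when file positions were counted from 0 and 4.85% when counted from 1; coordinates are printed from 1. All 10 patterning genes had the status OK. The rule for a symbol at several loci, the highest mean FPKM, was not needed for them. Log2 ratios used a pseudocount of 1 FPKM. The genes and lists were chosen with earlier results of these data known. Named from each list were up to 4 genes with the largest ratio of at least 2-fold, or else the 2 most abundant; for most cell type markers only list values are printed. Some genes and 1 list that this rule took are not reported here. Genes named outside this rule were chosen after their values were seen. Neighbours were the nearest records on either side, and the nearest homeobox gene was that at the smallest Euclidean distance on log2(FPKM + 1). Alternatives were other pseudocounts, scalings, filters, fold limits and the bound midpoints. The tools were numpy 2.4.6 and pandas 2.3.3 under Python 3.11.15, with matplotlib 3.10.9 for figures.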

Additional observations from a re-analysis of the deposited data

How the results depend on the processing

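With 1 library per genotype, no library could be left out. No paired analysis was possible because each group has 1 library and no result comes from a test. On the scales and pseudocounts tried, Lhx2 stayed at least 2-fold lower (log2 ratio -1.84 to -1.38) and Otx1 at least 2-fold higher (1.17 to 2.84). Otx2 ranged from -1.06 to -0.80, and it is the added gene where 2 genes were at least 2-fold lower, which was so after division by the upper quartile, after centring on the median, from the bound midpoints and with no pseudocount (chosen after seeing the data). With a 1.5-fold limit the lower genes also numbered 2, and with a 4-fold limit there were 0 lower and 0 higher. From the bound midpoints 2 genes were at least 2-fold higher, with En1 added. Among genes of at least 5 FPKM, 0 were higher, because Otx1 is below that filter. The median log2 ratio of the expressed patterning genes was -0.37 as reported, -0.51 and -0.43 with pseudocounts of 0.1 and 0.5 FPKM, -0.53 with none, -0.24 with FPKM rescaled to the same sum, -0.39 after division by the upper quartile, -0.45 after centring, -0.24 from the bound midpoints, -0.97 among genes of at least 5 FPKM and -0.058 with no filter. Rescaling to the same sum moved the median of all expressed records by 0.16 on the log2 scale. En2 changed sign in 2 of 7 such alternatives and Irx5 in 1 of 7; the other 8 genes kept their direction in all 7. Leaving out records with a status other than OK, or asking for a mean of 1 FPKM, did not move the counts or the median. The unknown depth limits what the values under 1 FPKM can show.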
